A study of Mus musculus with 20 samples.

Results

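Vasopressin and oxytocin are sister neuropeptides, and the genes of both precursors (Avp and Oxt) were measured in the preoptic area (POA) of male mice together with the receptor genes Avpr1a and Oxtr. These 4 genes were taken by symbol from a table of 25239 genes, and all 4 had reads in each of the 20 mice. Of the whole table, 22187 genes had reads in these mice and 17445, these 4 among them, passed the filter on low counts over the 20 mice.

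The study asked how long cohabitation with a female changes gene expression in the POA of normal and reproductively compromised males. From PND20 until tissue was taken at PND320, each male lived with 1 partner, either another male (same sex, SS) or a female (opposite sex, OS). OS-housed pairs could breed and raise pups, so OS housing included mating, a female and litters, which cannot be told apart here. Both housings were used for control and for dnFGFR males, which gave 4 groups of 5 mice. dnFGFR mice came from breeding pairs homozygous for a transgene that encodes a truncated FGFR1, driven in GnRH neurons by a rat GnRH promoter, and control mice of the same background descended from matings of heterozygous dnFGFR siblings. The transgene is thus aimed at GnRH neurons and not at the cells that make vasopressin or oxytocin. No agent was given to any group, and the labels name no strain. The labels give the tissue as medial POA but the cell type as whole brain; each library is bulk RNA of a hand-trimmed POA block whose edges were set by the optic chiasm, the septum and the internal capsule.

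Vasopressin and oxytocin are made as larger precursors, each with its own neurophysin, mainly in large neurons of the paraventricular and supraoptic nuclei that send axons to the posterior pituitary. Vasopressin is also made in the suprachiasmatic nucleus, the circadian clock that lies just above the optic chiasm, and both peptides are made in scattered cells near the POA. Their receptors V1a (Avpr1a) and OXTR (Oxtr) couple to Gq and act in social recognition, mating, aggression and parental care. The precursor genes lie side by side and point toward each other, and the hormones that they encode are close relatives. The bases that code for the hormone itself are shown first because the hormones differ there. They were read from GENCODE transcripts on GRCm38 (exon 1 of 3 in both genes), 5′ to 3′ on the coding strand, and capitals mark the bases that differ. Avp lies on the minus strand at chr2:130582446-130582472 and Oxt on the plus strand at chr2:130576267-130576293.

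Avp hormone: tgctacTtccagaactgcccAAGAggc

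Oxt hormone: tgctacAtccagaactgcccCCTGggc

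The stretches differ at 5 of 27 bases, and 2 of the 9 codons, codons 3 and 8, code for different amino acids. The longest stretch identical between the transcripts was 127 bases and ran from exon 1 into exon 2 of both. None of the 428 windows of 150 bases, the study's read length, in the Avp transcript was also present in the Oxt transcript, so a full-length read can be assigned to 1 of the genes, although the counting options for reads with several matches are not given in the sources used here. In RefSeq on GRCm38.p6, Avp spans chr2:130580620-130582588 (minus strand, 3 exons, 577 bases of exons) and Oxt spans chr2:130574519-130577054 (plus strand, 3 exons, 537 bases), with 3565 bases between their ends. Avpr1a spans chr10:122448499-122453453 (plus strand, 2 exons, 2670 bases) and Oxtr spans chr6:112473683-112491035 (minus strand, 2 exons, 4790 bases). The gene Gm48877 lies antisense to Avpr1a in GENCODE, and without stranded counting their reads cannot be told apart.

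The upstream sequences are shown because Avp and Oxt rose and fell together from mouse to mouse. They are the 250 bases before the transcript start in RefSeq's promoter table (GRCm38.p6), 5′ to 3′ on the gene's own strand: chr2:130582589-130582838 (minus strand) for Avp and chr2:130575919-130576168 (plus strand) for Oxt, the latter inside the span of the longer gene model given above. Capitals mark CACGTG, the E-box to which circadian clock factors are known to bind, and TGACC on either strand, a half-site of nuclear hormone receptors.

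Avp upstream: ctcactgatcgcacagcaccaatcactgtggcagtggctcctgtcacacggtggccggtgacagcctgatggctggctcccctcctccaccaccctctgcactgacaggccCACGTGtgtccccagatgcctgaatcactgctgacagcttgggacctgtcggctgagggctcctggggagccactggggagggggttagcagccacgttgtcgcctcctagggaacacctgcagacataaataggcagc

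Oxt upstream: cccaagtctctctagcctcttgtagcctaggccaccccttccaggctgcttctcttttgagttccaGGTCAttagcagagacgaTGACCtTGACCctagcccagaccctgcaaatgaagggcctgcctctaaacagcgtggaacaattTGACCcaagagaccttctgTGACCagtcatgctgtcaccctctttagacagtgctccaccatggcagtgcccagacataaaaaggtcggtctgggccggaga

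The Avp window held 1 CACGTG, at -139 from the start, and no TGACC. The Oxt window held TGACC at -166, -160, -102 and -83, its reverse complement at -184, and no CACGTG. Of 32851 promoter windows of this length, 6.02% held CACGTG and 35.2% held TGACC on either strand. These matches describe the letters only and say nothing on binding in these mice.

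Counted reads per mouse ran from 32353578 to 39871353, so that 1 CPM (a gene's reads scaled to a TMM-adjusted library size of 1000000) stands for 32.7 to 40.3 reads. Per kilobase of exons, the order of the mean levels was Oxt, Avp, Oxtr and Avpr1a. The mean level was 29.4 ± 20.6 CPM per kb for Oxt (SD, n = 20), 17.8 ± 21.6 for Avp, 2.02 ± 0.354 for Oxtr and 1.08 ± 0.276 for Avpr1a. Oxt was above Avp in 18 of 20 mice, in 10 of 10 control and 8 of 10 dnFGFR mice. Avp was above Oxtr in 16 of 20 mice, so these neighbours overlapped, while Oxtr was above Avpr1a in 20 of 20.

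Markers of the POA and of neighbouring tissue varied to different degrees between mice. In bulk tissue, fewer cells of a type and less RNA per cell cannot be told apart. Moxd1, a marker of medial preoptic neurons, was even across the 20 mice at 6.78 ± 0.510 CPM, whereas Gal, the galanin precursor and another preoptic marker, ran from 1.58 to 10.8 CPM. Gnrh1, the GnRH precursor, was detected in every mouse, between 0.949 and 2.53 CPM. Otp, a transcription factor that neurosecretory neurons of the paraventricular and supraoptic nuclei need, ran from 0.218 to 5.84 CPM, a 26.8-fold range. Vip, the peptide of the ventral suprachiasmatic nucleus, was also present in each mouse, from 4.57 to 16.2 CPM. Ttr, the most abundant choroid plexus marker, ran from 0.208 to 1992 CPM. dnFGFR OS replicates 2 and 5 each stood apart from their group over the whole transcriptome. Their median chi-square per gene to the other mice of the group was 55.5 and 50.4, against 11.1 to 34.1 for the other 18 mice. These 2 mice were not alike: the value between them was 121, the highest of all pairs within a group, and each median includes it. Log2 fold changes of the 4 genes in the main comparisons that include these 2 mice are given with and without them. Without them the lowest Gal level was 3.84 CPM, the lowest Otp level 0.333 CPM (a 17.5-fold range) and the highest Vip level 13.5 CPM.

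The precursors varied from mouse to mouse far more than most genes. In control SS mice, replicates 1 to 5, Avp was at 1.5, 3.6, 1.33, 35.3 and 0.739 CPM. In control OS mice it was at 8.79, 10.2, 8.43, 5.00 and 2.95 CPM. Replicate 4 of the SS group was the highest control mouse, while 3 of the other 4 SS mice lay under every OS mouse. In dnFGFR SS mice Avp was at 7.13, 8.24, 49.9, 2.17 and 16.8 CPM. In dnFGFR OS mice it was at 9.49, 1.23, 16.6, 15.5 and 0.763 CPM. The dnFGFR groups overlapped, with SS replicates 3 and 5 above every OS mouse and OS replicates 2 and 5 below every SS mouse. Replicate 3 of dnFGFR SS was the highest mouse of the study.

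Oxt was at 10.8, 16.2, 6.14, 37.7 and 4.66 CPM in control SS mice. In control OS mice it was at 23.1, 32.9, 17.1, 20.4 and 17.4 CPM. Only replicate 4 of the SS mice reached or passed the OS range, and the OS mice were the most uniform of the 4 groups. In dnFGFR SS mice Oxt was at 8.03, 12.1, 40.4, 4.82 and 18.2 CPM. In dnFGFR OS mice it was at 11.5, 1.14, 14.0, 17.4 and 2.05 CPM. The lowest values of the study were those of dnFGFR OS replicates 2 and 5, and 1 of the 5 dnFGFR OS mice reached the lower end of the control OS range.

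The receptors were far more even. Avpr1a was at 2.62, 2.61, 2.89, 3.83 and 2.98 CPM in control SS mice and at 2.66, 3.88, 2.47, 2.16 and 2.41 CPM in control OS mice. In dnFGFR SS mice it was at 3.19, 2.14, 3.26, 2.62 and 2.85 CPM and in dnFGFR OS mice at 4.99, 1.85, 3.62, 2.49 and 2.35 CPM. All 4 groups overlapped, and dnFGFR OS held both the highest and the lowest mouse, on 171 and 68 reads. Oxtr was at 7.67, 7.91, 11.3, 7.58 and 7.42 CPM in control SS mice and at 8.40, 9.16, 11.4, 8.59 and 8.44 CPM in control OS mice. In dnFGFR SS mice it was at 11.1, 9.35, 8.04, 12.1 and 8.86 CPM and in dnFGFR OS mice at 12.7, 11.5, 11.5, 10.5 and 9.89 CPM. In both control groups 4 of 5 mice lay at or under 9.16 CPM with replicate 3 alone above them, whereas 5 of 5 dnFGFR OS mice lay at or above 9.89. The ranges still overlapped through those 2 control mice.

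**Figure D1:**
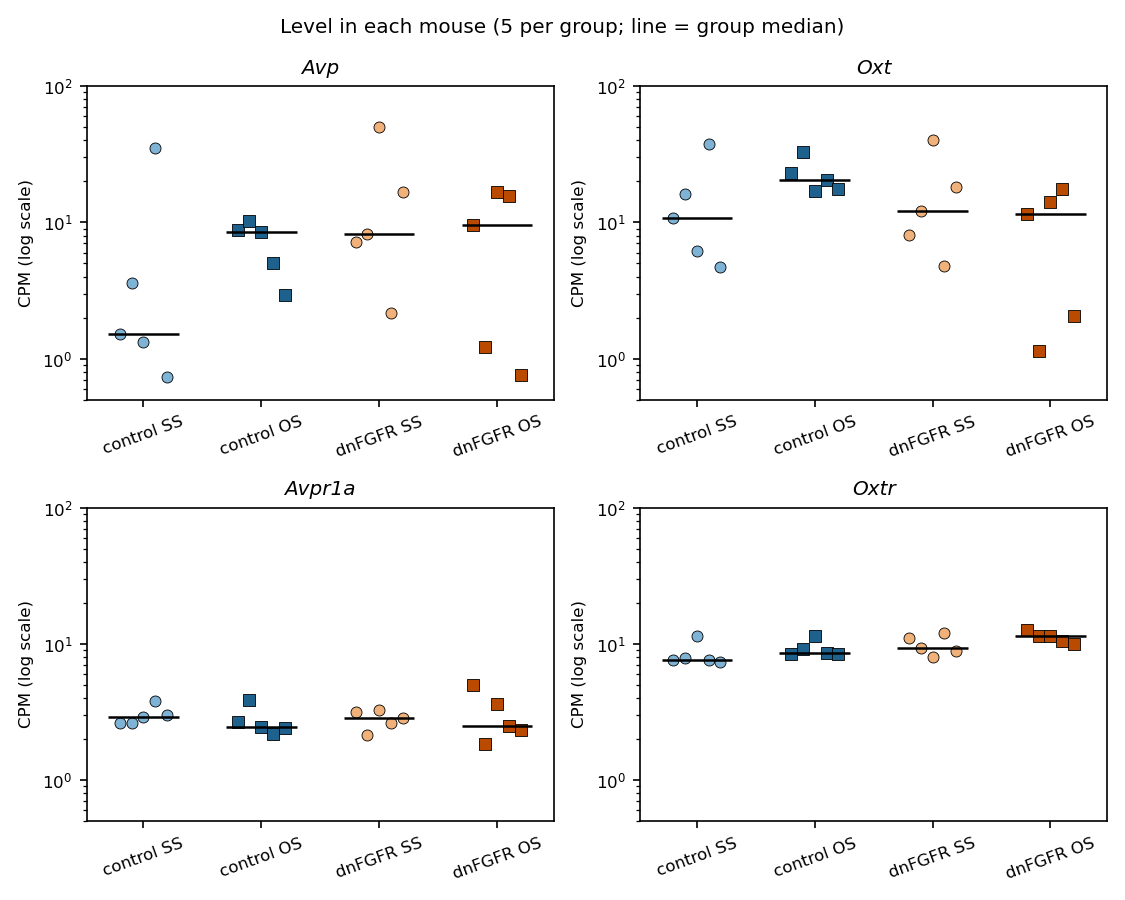
Level of each gene in each of the 20 mice, in CPM on a log axis that is the same in the 4 panels. Points are mice, 5 per group, and lines are group medians. Avp is scattered over a 47.8-fold range in control SS mice (0.739 to 35.3 CPM) and Oxt over a 15.2-fold range in dnFGFR OS mice (1.14 to 17.4 CPM), while Avpr1a (1.85 to 4.99 CPM) and Oxtr (7.42 to 12.7 CPM) form narrow bands.

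The coefficient of variation (CV) within a group, averaged over the 4 groups, was 105% for Avp and 70.4% for Oxt, against a median of 11.7% over 17445 genes. Avp stood at the 99.7th percentile of all genes, with 53 genes above it, and Oxt at the 98.7th, with 220 above it. Avpr1a (24.7%, percentile 80.2) and Oxtr (15.0%, percentile 62.9) lay much nearer to the median gene. For Avp the CV was 177% in control SS, 42.4% in control OS, 114% in dnFGFR SS and 86.7% in dnFGFR OS mice. For Oxt it was 88.8%, 29.1%, 84.7% and 79.0% in the same order. With all mice, control OS was the most even group for both precursors, but without dnFGFR OS replicates 2 and 5 the CV of the remaining 3 dnFGFR OS mice was lower still (27.6% for Avp and 20.8% for Oxt). Those replicates were the lowest of their group for both precursors, so that leaving them out lowers the CV by itself. No mouse was left out of control OS, so these values do not rank the groups. Differences in spread were not tested.

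**Figure D2:**
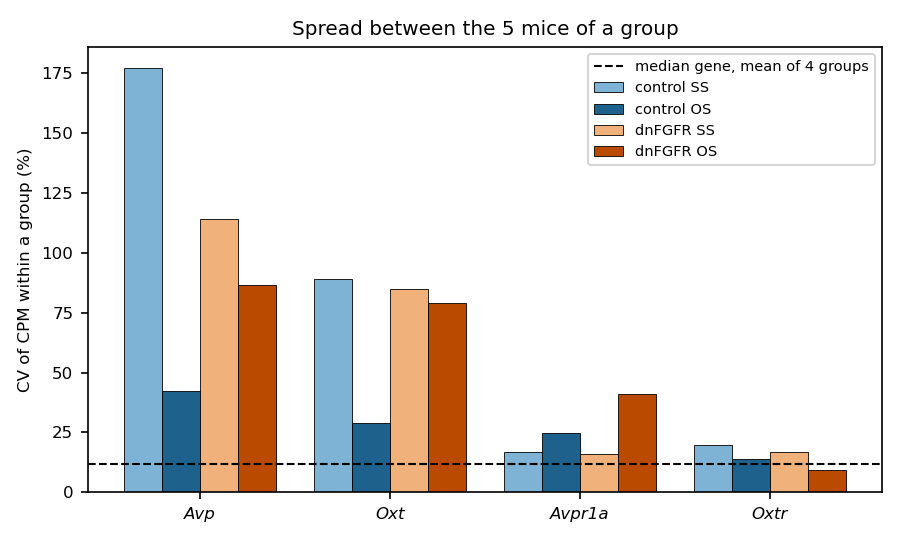
CV of CPM (percent) between the 5 mice of each group for each gene. Bars are groups and the dashed line is the median gene (11.7%, mean of the 4 groups). Avp reaches 177% in control SS mice, and with all 5 mice per group both precursors have their lowest bar in control OS mice (42.4% and 29.1%). That order depends on dnFGFR OS replicates 2 and 5, the lowest mice of their group for both precursors.

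Housing was compared first within each genotype. In control mice none of the 4 genes was called at an adjusted p under 0.1 (edgeR quasi-likelihood test, Benjamini-Hochberg over 17004 genes), where 0.124% of all genes tested were called, and none had an unadjusted p under 0.05, as 7.2% of all genes had. Mean Oxt (± SD, n = 5 per group) was 22.2 ± 6.45 CPM in OS and 15.1 ± 13.4 in SS mice. This was a log2 fold change of 0.55 (SE 0.42, edgeR adjusted p = 0.837), and the 95% interval reached from 0.788- to 2.71-fold. Without control SS replicate 4 the Oxt value was 1.23. Mean Avp was 7.08 ± 3.00 CPM in OS and 8.50 ± 15.0 in SS mice, a log2 fold change of -0.28 (SE 0.79, edgeR adjusted p = 0.968), with an interval from 0.256- to 2.65-fold. The sign of the Avp difference rested on 1 mouse: without control SS replicate 4 it was 1.98 (edgeR adjusted p = 0.134, the lowest over its alternatives). DESeq2 gave no p-value for Avp in this comparison, and it called neither Oxt nor the receptors. When mice were compared only with mice killed on the same day (2 of the SS and 5 of the OS mice), Avp was 1.43 higher under OS housing. This value, on the log2 scale, was not called either (edgeR adjusted p = 0.378). For the receptors the log2 fold changes were -0.14 for Avpr1a and 0.13 for Oxtr, with intervals from 0.693- to 1.19-fold and from 0.903- to 1.34-fold.

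In dnFGFR mice Avp and Oxt both had a lower mean under OS housing, but none of the 4 genes was called by edgeR or by DESeq2. Here 0% of 16944 genes were called by edgeR (1138, or 6.72%, had an unadjusted p under 0.05, none of the 4 among them) and DESeq2 called 5. Mean Avp was 8.72 ± 7.56 CPM in OS and 16.9 ± 19.2 in SS mice, a log2 fold change of -0.95 (SE 0.82, edgeR adjusted p = 0.830), with an interval from 0.152- to 1.76-fold. Mean Oxt was 9.23 ± 7.29 against 16.7 ± 14.1 CPM, a log2 fold change of -0.85 (SE 0.67, edgeR adjusted p = 0.820), with an interval from 0.204- to 1.5-fold. With dnFGFR OS replicates 2 and 5 left out, these values were -0.29 for Avp and -0.23 for Oxt. Without dnFGFR SS replicate 3, that of Avp was 0.02 and that of Oxt -0.23. The log2 fold changes of Avpr1a (0.12, SE 0.25) and Oxtr (0.18, SE 0.12) had intervals on both sides of 0. With dnFGFR OS replicates 2 and 5 left out, they were 0.39 for Avpr1a and 0.22 for Oxtr.

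Genotype was then compared within each housing, and these comparisons share their mice with the ones above. In SS-housed mice, where 0.2% of 16992 genes were called, none of the 4 genes was called and none had an unadjusted p under 0.05, as 8.63% of all genes had. Avp was 0.97 higher on the log2 scale in dnFGFR mice (SE 0.92, edgeR adjusted p = 0.826), but 2 mice decided this value. It was -9.84e-05 without dnFGFR SS replicate 3 and 3.24 without control SS replicate 4. The log2 fold change was 0.14 for Oxt, -0.09 for Avpr1a and 0.24 for Oxtr. In OS-housed mice, where 0.0531% of 16941 genes were called, none of the 4 was called, but 2 of 4, Oxt and Oxtr, had an unadjusted p under 0.05, against 7.02% of all genes. Oxt had a mean of 9.23 ± 7.29 CPM in dnFGFR OS and 22.2 ± 6.45 in control OS mice. Its log2 fold change was -1.26 (SE 0.54, edgeR adjusted p = 0.666), a 0.417-fold level with an interval from 0.186- to 0.935-fold. Without dnFGFR OS replicates 2 and 5 the log2 fold change was -0.63 (edgeR adjusted p = 0.444, with 0.346 to 0.995 over its alternatives). Oxtr had a mean of 11.2 ± 1.07 against 9.20 ± 1.27 CPM, a log2 fold change of 0.29 (SE 0.12, edgeR adjusted p = 0.656) and a 1.22-fold level with an interval from 1.03- to 1.45-fold. Avp (0.30, SE 0.65) and Avpr1a (0.17, SE 0.27) had intervals on both sides of 0, unlike Oxt and Oxtr. Without dnFGFR OS replicates 2 and 5 the log2 fold change was 0.97 for Avp, 0.45 for Avpr1a and 0.33 for Oxtr. The groups of no comparison were free of overlap for any of the 4 genes, against 1.42% to 1.59% of all genes without overlap.

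The housing by genotype interaction, over all 20 mice, asked whether the housing difference itself differed between genotypes. It called 0 of 4 genes and 0% of 17445 genes in edgeR (595 with an unadjusted p under 0.05, 3.41%), and 1 gene in DESeq2, none of the 4. The interaction was -1.41 for Oxt (SE 0.87, edgeR adjusted p = 0.963), -0.68 for Avp (SE 1.28), 0.26 for Avpr1a (SE 0.32) and 0.05 for Oxtr (SE 0.19). Without dnFGFR OS replicates 2 and 5 it was -0.77 for Oxt, -0.00423 for Avp, 0.53 for Avpr1a and 0.09 for Oxtr.

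**Figure D3:**
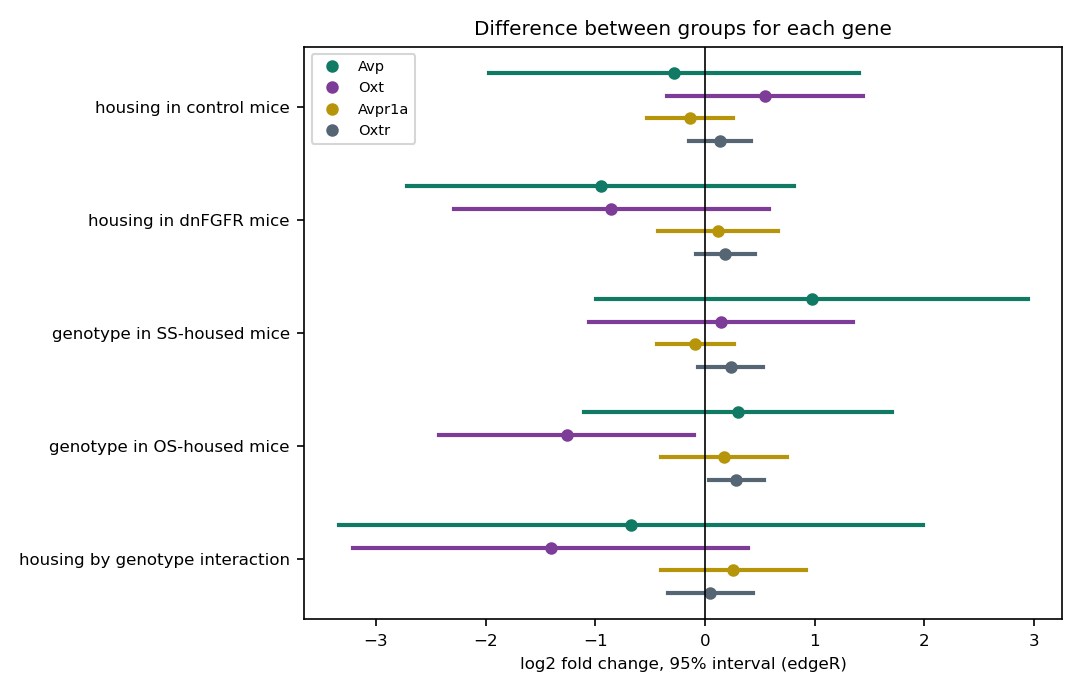
Log2 fold change (point) and 95% interval (line) of each gene in each comparison, from edgeR: OS against SS housing within a genotype, dnFGFR against control within a housing, and the interaction. Intervals of Avp and Oxt are wider than those of the receptors in each comparison. Oxt (-1.26) and Oxtr (0.29) in OS-housed mice are the intervals that miss 0 before adjustment, and neither passed after it.

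Avp and Oxt moved together from mouse to mouse. Over the 20 mice, the Pearson r of their log2 CPM was 0.802 (permutation p = 3e-05, adjusted p = 0.00012 over 12 relations) and Spearman's rho was 0.809. It was 0.743 without the 2 mice farthest from the median Avp. Within a genotype the relation was tighter, with r = 0.926 in the 10 control and 0.965 in the 10 dnFGFR mice, and it was present in deviations from group means (0.936). Oxt ranked 8th of 17444 genes by likeness to Avp.

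Neither receptor moved with the precursors as closely. Avpr1a had r = 0.466 with Avp (permutation adjusted p = 0.0756 over 12 relations) and 0.427 with Oxt (adjusted p = 0.0911), and without dnFGFR OS replicates 2 and 5 these were 0.346 and 0.150, no longer past 0.1. Oxtr had r = -0.425 with Oxt (permutation adjusted p = 0.0911), and -0.389, no longer past 0.1, without those mice. With each mouse left out in turn, the call for Oxt and Oxtr was lost in 14 of 20 omissions. That for Oxt and Avpr1a was lost in 11 of 20, and that for Avp and Avpr1a in 5 of 20. Oxtr with Avp (-0.07) and Avpr1a with Oxtr (0.08) were near 0.

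Although the precursors moved together, the ratio of Avp to Oxt reads differed between the genotypes, a pattern that was noticed in these counts and tested on the same mice. In control mice Avp was at 0.139 to 0.937 reads per Oxt read (median 0.234, n = 10), and 9 of 10 mice lay under 0.5. In dnFGFR mice it was at 0.373 to 1.24 (median 0.888, n = 10), and 2 of 10 lay under 0.5. The mean log2 ratio was -1.99 ± 1.10 in control SS and -0.34 ± 0.547 in dnFGFR SS mice, a 3.16-fold difference (exact permutation p = 0.0397, adjusted p = 0.0661 over 5 tests, two-sided, n = 5 each). This call was lost in 9 of 10 omissions of 1 mouse (exact permutation adjusted p up to 0.132). It was -1.74 ± 0.590 in control OS and -0.31 ± 0.658 in dnFGFR OS mice, a 2.70-fold difference (exact permutation p = 0.0238, adjusted p = 0.0595). Over both housings, with genotypes permuted within each, the difference was 2.92-fold (exact permutation p = 0.000756, adjusted p = 0.00378). Without dnFGFR OS replicates 2 and 5 the log2 difference over both housings was 1.66 in place of 1.55. In OS-housed mice it was 1.67 in place of 1.43.

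Between housings, the ratio did not pass the threshold in either genotype. The log2 difference of OS from SS mice was 0.26 in control mice (exact permutation p = 0.667) and 0.03 in dnFGFR mice (exact permutation p = 0.960). The control value depended on SS replicate 4, the control mouse with the highest ratio (0.937). Without it the control difference was 0.73 and passed the threshold (exact permutation adjusted p = 0.0794, with 0.0794 to 0.968 over its alternatives). No sacrifice date held mice of both genotypes, so that genotype and date cannot be told apart for the ratio or for any genotype comparison above.

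**Figure D4:**
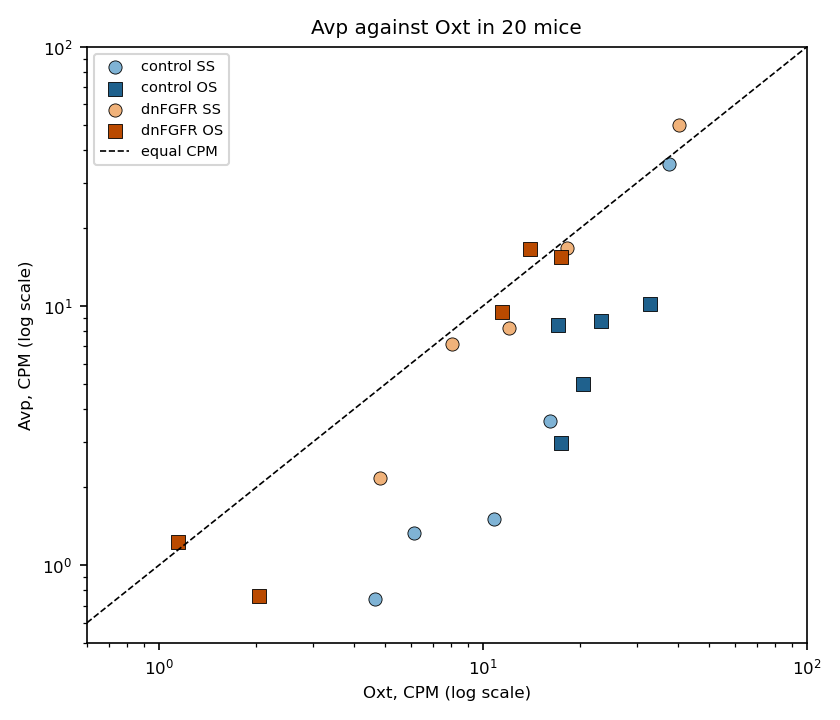
Avp against Oxt in each of the 20 mice, both in CPM on log axes. Blue points are control and orange points dnFGFR mice, circles SS and squares OS, and the dashed line marks equal CPM. Both genotypes run along the diagonal, and 9 of 10 control but 2 of 10 dnFGFR mice have under 0.5 Avp reads per Oxt read.

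The levels of both precursors were higher where the mean of the neurosecretory markers was higher, although not every marker of that list moved with them. The neurosecretory score, the mean log2 CPM of 12 markers of the paraventricular and supraoptic nuclei, had r = 0.854 with Avp and 0.845 with Oxt (permutation p = 1e-05 each, the smallest that 100000 resamples can give, adjusted p = 6e-05). Within genotypes r was 0.977 and 0.824 for Avp and 0.947 and 0.851 for Oxt, in control and dnFGFR mice. Taken 1 by 1, 9 of the 12 markers had a positive r with Avp (median 0.37) and 9 of 12 with Oxt (median 0.27). The score gives each marker the same weight on the log2 scale, so markers that vary widely between mice move it most. Over the 20 mice, Otp had a 26.8-fold and Arnt2 a 1.29-fold range. The summed level of the list, led by Peg3 (r = 0.09 with Avp and 0.15 with Oxt), stayed between 779 and 1131 CPM per mouse. The score of 12 suprachiasmatic markers had r = 0.553 with Avp (permutation adjusted p = 0.0308, and 0.425, no longer past 0.1, without dnFGFR SS replicate 3) and 0.120 with Oxt (adjusted p = 0.738). With each group's mean removed, the value for Oxt was 0.60 and past the threshold. Taken 1 by 1, 6 of the 12 suprachiasmatic markers had a positive and 6 a negative r with Avp (median 0.03). With Oxt, 7 were positive and 5 negative (median 0.10). For the preoptic score, r with Oxt was 0.660 (permutation adjusted p = 0.00804), but rho was 0.274 and r was 0.130 without dnFGFR OS replicates 2 and 5, so that this relation rested on those mice. These scores come from the same libraries as the precursors, and how much of each nucleus a block held was not measured in another way.

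Single markers of 1 nucleus differed in how closely they followed the precursors. Across the neurosecretory list r with Avp ran from -0.67 for Pdyn, the prodynorphin gene, to 0.91 for Trh, and r with Oxt from -0.49 to 0.86 for the same pair. Pdyn was named after its values were seen. The genes most like Avp over the 20 mice were Trh, the thyrotropin-releasing hormone precursor (r = 0.911), Otp (0.881) and Agt, angiotensinogen (0.865). Sim1, the transcription factor on which neurosecretory neurons depend, ranked 20th (0.774), but rests on 0 to 120 reads. The genes most like Oxt were Foxj1, a regulator of motile cilia (0.882), the preoptic marker Gal (0.878, rho 0.665, and 0.687 without dnFGFR OS replicates 2 and 5) and Tmem184a (0.870), with Trh 5th (0.863) and Otp 13th (0.836). Gal had r = 0.63 with Avp. Of the suprachiasmatic markers, Vip had r = -0.12 with Avp and -0.39 with Oxt (0.05 and -0.14 without those mice), Six6 had 0.64 and 0.44, and Nms had 0.55 and 0.29. Six6 rests on 2 to 31 reads per mouse and Nms on 6 to 51. That list held 6 positive and 6 negative values with Avp. Among the negative were C1ql3 (-0.425 with Avp and -0.689 with Oxt), Rasl11b (-0.33 and -0.43) and Grp (-0.17 and -0.51). The neurosecretory marker Crh, the corticotropin-releasing hormone precursor, was at 0.29 and 0.11. The genes most like Avpr1a were Susd2 (0.725), Chodl (0.720) and Inpp5e (0.720), and those most like Oxtr were Zwint (0.799), Kcnip4 (0.770) and Scfd2 (0.768).

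**Figure D5:**
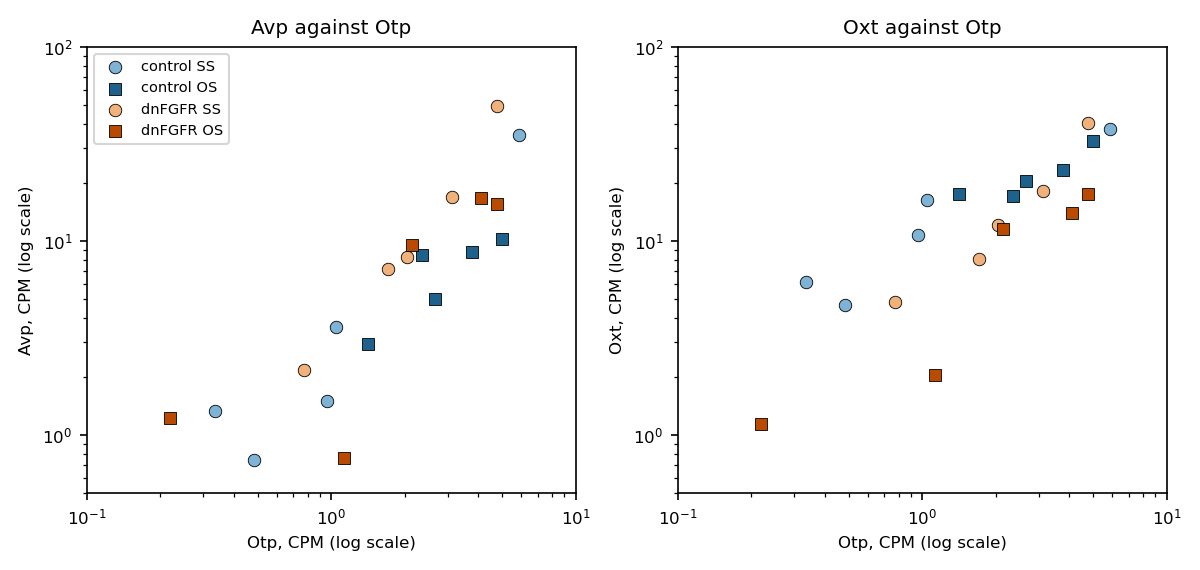
Avp (left) and Oxt (right) against Otp, a marker of neurosecretory neurons, in each of the 20 mice, all in CPM on log axes. Colours and shapes are groups. Both precursors climb with Otp (r = 0.881 for Avp and 0.836 for Oxt on the log2 scale).

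The choroid plexus, a tissue that projects into the ventricles and makes cerebrospinal fluid, also varied with the precursors. Its 8 markers summed to 142, 426, 62.2, 1120 and 52.3 CPM in control SS and 1465, 2002, 767, 1961 and 68.7 CPM in control OS mice, and where this sum was high most of it was Ttr. In dnFGFR SS mice the sum was 67.8, 70.0, 1625, 50.6 and 775 CPM and in dnFGFR OS mice 257, 42.3, 2237, 76.1 and 455 CPM. Control SS replicate 4 and dnFGFR SS replicate 3, the mice with the most Avp and Oxt, had the highest choroid plexus sum of their groups. Over the 20 mice Ttr had r = 0.579 with Avp and 0.669 with Oxt, and 0.635 and 0.838 without dnFGFR OS replicates 2 and 5. In control mice 8 of 8 markers had a higher mean under OS housing (median log2 fold change 1.39), with Oxt at 0.55 and Avp at -0.28. Of these markers 4 had an unadjusted edgeR p under 0.05, against 7.2% of all genes, and none was called. Under OS housing 8 of 8 were lower in dnFGFR than in control mice (median -0.80), with Oxt at -1.26 and Avp at 0.30. There 0 of 8 had an unadjusted edgeR p under 0.05. For housing in dnFGFR mice 8 of 8 were higher (median 0.39), with Oxt at -0.85 and Avp at -0.95. For genotype in SS-housed mice 6 of 8 were higher (median 0.06), with Oxt at 0.14 and Avp at 0.97. In the interaction 0 of 8 were (median -0.82), with Oxt at -1.41 and Avp at -0.68. The part of choroid plexus in the precursor levels was not tested. Pituitary markers summed to 1.04 to 7.96 CPM, and over the 20 mice Pomc, which hypothalamic neurons also express, had the highest mean (1.03 CPM). The highest sum was that of control OS replicate 2, led by Gh, the growth hormone gene (3.88 CPM, 136 reads), with Prl, the prolactin gene, at 0.656 CPM. This mouse also had the highest Avp, Oxt and Avpr1a of its group. Gh was at 0 reads in 14 of 20 mice and Prl in 17 of 20. The part of pituitary tissue in these levels was not tested.

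Other parts of the vasopressin and oxytocin pathway gave no called gene. Peptide processing and release was followed with 14 genes, led by Cpe, the carboxypeptidase that trims peptides after cleavage. All 14 were tested in each comparison and none was called. In each housing comparison 2 had an unadjusted p under 0.05, against 7.2% (control) and 6.72% (dnFGFR) of all genes. In each genotype comparison 1 had, against 8.63% (SS) and 7.02% (OS), and in the interaction 0, against 3.41%. Pcsk1, the convertase that cuts precursors, was at 42.4 ± 3.88 CPM in dnFGFR OS, 35.5 ± 3.28 in dnFGFR SS, 34.6 ± 3.72 in control OS and 30.5 ± 3.43 in control SS mice (SD, n = 5 each). Its log2 fold change was 0.26 for housing in dnFGFR mice (edgeR adjusted p = 0.726) and 0.29 for genotype in OS-housed mice (adjusted p = 0.608). Pam, the enzyme that amidates both hormones, was at 187 ± 12 CPM over the 20 mice. Lnpep, the aminopeptidase that degrades oxytocin and vasopressin, was at 26.3 ± 8.36 CPM in control OS and 35.2 ± 3.39 in control SS mice (log2 fold change -0.42, edgeR adjusted p = 0.621). Cd38, needed for oxytocin release, was at 5.71 ± 1.37 CPM (88 to 300 reads per mouse) and Magel2, an imprinted gene active in these neurons, at 21.1 ± 4.36 CPM over the 20 mice. Magel2 had r = 0.612 with Avp and 0.778 with Oxt, and 0.459 and 0.473 without dnFGFR OS replicates 2 and 5.

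The rest of the receptor family was close to absent. Avpr1b, the pituitary vasopressin receptor, had 0 to 11 reads per mouse and 0 reads in 10 of 20 mice. Avpr2, the kidney receptor, had 1 to 16 reads per mouse. Of 18 genes of this family and of the Gq pathway downstream of V1a and OXTR, led by Prkcb (1223 ± 182 CPM), 16 were tested in each comparison between groups and 17 in the interaction, and none was called. Their median log2 fold change was -0.07, -0.03, -0.04 and 0.03 for housing in control and dnFGFR mice and for genotype in SS- and OS-housed mice, against 0.00 for all genes in each.

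The marker lists gave no called gene in any of the 5 comparisons, and their medians are given as a description of the borders of the block. The 12 neurosecretory markers, led by Peg3, had median log2 fold changes of 0.06, -0.00, 0.01 and -0.03 in the same order of comparisons. Of the suprachiasmatic markers, led by Six3, 10 of 12 had a higher mean in dnFGFR than in control mice under OS housing (median 0.24). Of them 3 had an unadjusted p under 0.05, against 7.02% of all genes in either direction. Vip was 0.60 (SE 0.23, edgeR adjusted p = 0.655), Grp 0.79 and C1ql3 0.74 higher on the log2 scale, while Six3, with a log2 fold change of -0.20 (edgeR adjusted p = 0.699), had an unadjusted p under 0.05 in the other direction. Under SS housing 8 of 11 had a higher mean in dnFGFR mice (median 0.19), among them Nms, the neuromedin S precursor (1.09, edgeR adjusted p = 0.555). The 12 preoptic markers had medians between -0.06 and 0.03. The 8 striatal markers, led by Ppp1r1b, had a lower mean in dnFGFR mice in 8 of 8 cases under both housings (median -0.18 and -0.27). In each, 5 of 8 had an unadjusted p under 0.05, against 8.63% (SS) and 7.02% (OS) of all genes. The striatal markers also had a lower mean under OS than SS housing in 8 of 8 cases in both genotypes (median -0.10 in control and -0.21 in dnFGFR mice). Of these, 3 and 2 of 8 had an unadjusted p under 0.05, against 7.2% (control) and 6.72% (dnFGFR) of all genes. Whether these borders had a part in the ratio of Avp to Oxt was not tested.

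The labels were checked on the genes that the model concerns. Gnrh1 was at 2.02 ± 0.454 CPM in control SS, 1.27 ± 0.160 in dnFGFR SS, 2.01 ± 0.372 in control OS and 1.42 ± 0.416 in dnFGFR OS mice (SD, n = 5 each). Its log2 fold change with genotype was -0.67 under SS housing (edgeR adjusted p = 0.308). Of Gnrh1 and Fgfr1, 1 had an unadjusted edgeR p under 0.05 under SS housing, where 8.63% of all genes had. Under OS housing 0 of the 2 had, against 7.02% of all genes. Fgfr1, of which the transgene encodes a truncated form, was at 89.4 ± 5.14 CPM over the 20 mice, and total reads of this gene do not show the transgene, which is limited to rare neurons. Gnrh1 followed neither precursor (r = -0.27 with Avp and 0.07 with Oxt).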

How the data were processed

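POA RNA of 20 male mice was sequenced as paired-end reads. Alignment used HISAT2 and GRCm38, and the authors then ran Rsubread with the RefSeq annotation and deposited whole-number counts for each gene, not normalized. Strand and multi-mapping options are not given in the sources used here. The submitters' notes also name DESeq2 1.36.0. The table held 20 columns that match no sample and were not used.

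Counts were tested with edgeR 4.0.16 in R 4.3.3 (TMM, filterByExpr, quasi-likelihood test, Benjamini-Hochberg adjustment over all genes tested, adjusted p under 0.1), each comparison between 2 groups on the mice of those groups and the interaction on all 20. CPM are counts scaled to a TMM-adjusted library size of 1000000. Correlations and likeness used log2 CPM with a prior count of 2 and 100000 permutations (20000 with a mouse left out). Ratios of Avp to Oxt reads were compared by exact permutation (252 splits, smallest p 0.00794; 63504 over both housings). The labels do not say more than that each sample is 1 mouse. No libraries of a group agreed within sampling noise (chi-square per gene 9.18 to 121). On simulated counts for housing in control mice, 193 of 200 genes with a log2 change of 1 were called, with 19 unchanged genes, and 186 of 200 with 15 unchanged genes for genotype in OS-housed mice. These shares are for genes of typical spread and do not apply to Avp and Oxt, whose biological coefficients of variation were 0.953 and 0.665 against a median of 0.124.

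The 4 genes, the marker lists and the named genes (the members, the 3 most alike by r, fixed defining markers and the most abundant gene of most lists) were chosen with earlier results of these data known. Added after the counts were seen were the ratio of Avp to Oxt, the test over both housings, deviations from sacrifice date means and the omission of dnFGFR OS replicates 2 and 5. Sequences came from RefSeq and GENCODE M21. Sacrifice dates came from the study's sample list. Alternatives were RLE size factors, tests without a filter or with a minimum of 10 counts per mouse, all groups in 1 fit, the replicate number as a block, DESeq2 1.42.0, sacrifice dates, a prior count of 0.5, and each mouse left out.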

Additional observations from a re-analysis of the deposited data

Results flagged for a closer look

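In groups of 5, the gap of an extreme mouse to its nearest neighbour was compared with the whole range of its group. Of 20 groups tested, 5 held such a mouse, where chance gives about 1 in 20. Control SS replicate 4 was far above its group for Avp, at 35.3 CPM (0.917 of the range), and for the ratio of Avp to Oxt reads, at 0.937 (0.896 of the range). Control OS replicate 2 was far above its group for Avpr1a, at 3.88 CPM. Control SS replicate 3 and control OS replicate 3 were far above their groups for Oxtr, at 11.3 and 11.4 CPM.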

How the results depend on the processing

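Of 375 values of the 4 genes under an alternative, 356 kept their direction and side of the threshold, 19 turned direction and 0 were called. DESeq2 gave no p-value for Avp for housing in control mice, and that fit of Avp is not among the 375. Genes called for housing in control mice were 32 with at least 10 counts in every mouse, 0 with all groups in 1 fit, 157 with DESeq2 and 1 within sacrifice dates, in place of 21. DESeq2 called 5 in place of 0 for housing in dnFGFR mice, 225 in place of 34 for genotype under SS housing, 78 in place of 9 for genotype under OS housing and 1 in place of 0 for the interaction. Genotype under OS housing gave 45 with all groups in 1 fit. Same-numbered mice deviated together in at most 2 of 5 pairs (r over 0.1), so the numbers do not pair the mice. With the replicate block this comparison gave 3 called genes, and Avp was -0.24 there and 1.17 for housing in control mice, both reversed. Within sacrifice dates, the housing difference in control mice was 1.43 for Avp and -0.0606 for Oxtr, and that in dnFGFR mice was -0.0345 for Avpr1a, again reversed. With group means removed, r was -0.32 for Oxt and Oxtr (no longer past 0.1), 0.46 for Avp and the preoptic score and 0.60 for Oxt and the suprachiasmatic score (both now past it). With date means removed, these were -0.34, 0.60 and 0.56. Without dnFGFR OS replicates 2 and 5, r was 0.35 for Avp and Avpr1a, 0.0353 for Avp and Oxtr, 0.15 for Oxt and Avpr1a, -0.39 for Oxt and Oxtr and 0.13 for Oxt and the preoptic score. The causes were not tested.

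With each mouse left out in turn, genes called ran from 0 to 32 (housing, control), 21 to 70 (genotype, SS) and 3 to 16 (genotype, OS). The log2 fold change of Avp ran from -0.58 to 1.98 (housing, control), -1.32 to 0.0182 (housing, dnFGFR), -9.84e-05 to 3.24 (genotype, SS), -0.0707 to 0.59 (genotype, OS) and -2.93 to 0.31 (interaction). That of Oxt ran from 0.32 to 1.23 (housing, control) and -1.22 to -0.23 (housing, dnFGFR). It ran from -0.49 to 0.83 (genotype, SS) and -2.08 to -0.76 (interaction). That of Avpr1a ran from -0.30 to -0.03 (housing, control) and -0.12 to 0.26 (housing, dnFGFR). It ran from -0.15 to 0.0173 (genotype, SS), -0.0706 to 0.33 (genotype, OS) and 0.0241 to 0.43 (interaction). That of Oxtr ran from 0.0436 to 0.27 (housing, control) and 0.12 to 0.27 (housing, dnFGFR). It ran from 0.155 to 0.37 (genotype, SS) and -0.0789 to 0.15 (interaction). Values of r ran from 0.40 to 0.53 (Avp and Avpr1a), -0.23 to 0.0499 (Avp and Oxtr), 0.25 to 0.52 (Oxt and Avpr1a), -0.55 to -0.35 (Oxt and Oxtr) and -0.19 to 0.21 (Avpr1a and Oxtr). For marker scores they ran from 0.24 to 0.51 (Avp, preoptic), 0.43 to 0.64 (Avp, suprachiasmatic), 0.41 to 0.78 (Oxt, preoptic) and -0.0598 to 0.27 (Oxt, suprachiasmatic). The log2 difference in the ratio of Avp to Oxt ran from 0.0436 to 0.73 (housing, control), -0.17 to 0.31 (housing, dnFGFR) and 1.45 to 2.13 (genotype, SS). For genotype under SS housing it lost its side of the threshold in 9 of 10 omissions, and over both housings in 0 of 20 (1.44 to 1.78). Avpr1a rested on 68 to 171 reads per mouse, and with 5 mice per group the spread of Avp and Oxt limits what these comparisons can detect.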
